A study of Homo sapiens with 3 samples.

Results

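Metallothioneins are small cysteine-rich proteins that bind zinc, copper and cadmium in the cytoplasm and nucleus. Their genes are known to be switched on by free zinc through the metal-sensing transcription factor MTF1, and also by glucocorticoids and oxidative stress. In breast epithelium MT2A is known as the most commonly expressed family member, with a variable set of MT1 genes beside it. The genes described here are MT2A, MT1X, MT1E, MT1F, MT1G and MT1M, whose rows were found by symbol. They are 6 of the 12 metallothionein genes and 6 of the 22499 gene rows with a symbol in the count tables. The family was chosen by its transcript counts in the same cells described below, so its levels and ratios are given as a description, with no test.

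CAMA-1 cells are an established breast cancer line that carries the estrogen receptor. The ribociclib-sensitive lineage was marked with mVenus, and the resistant lineage, derived from it by long growth in the CDK4/6 inhibitor ribociclib, with mCherry. Each spheroid was plated with 2000 cells, of which 100%, 50% or 0% were of the sensitive lineage, and all were kept in 1 µM ribociclib with DMSO for 11 days, so that there was no untreated group. 1 single-cell library was made for each of the 3 spheroid types. Dividing the mixed spheroids by lineage gives 4 populations, which are sensitive cells alone (monoculture), cocultured sensitive cells, cocultured resistant cells and resistant cells alone, and values without names follow this order. With no replicate library, no test across samples was possible, and the 95% intervals given in parentheses cover counting error only.

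Each value is a count of unique molecular identifiers (UMIs), 1 for each RNA molecule captured near its 3′ end, and levels (CPM) are UMIs of a gene per 1000000 UMIs of the population. The annotation held 19237 cells, of which 3329 were sensitive cells alone, 2059 cocultured sensitive cells, 6292 cocultured resistant cells and 7557 resistant cells alone, with medians of 27622 to 35443 UMIs per cell. The 7 luminal epithelial markers summed to between 7659 and 9605 CPM in the 4 populations, while basal, fibroblast, leukocyte and endothelial markers each summed to at most 3.65 CPM. In coculture every annotated cell had at least 1 UMI of its own transgene and 0 of the other. In monoculture 2258 of 3329 sensitive and 5507 of 7557 resistant cells had at least 1, so the cells of the cultures were not selected alike. Among cells with 2 or more UMIs of their own transgene, the log2 ratio of MT2A between cultures was 2.05 in sensitive and 0.41 in resistant cells, against 2.02 and 0.38 in all. Pairs of libraries shared 34 to 60 barcode sequences, of which 7 to 17 were annotated cells in both. The median mitochondrial share of UMIs was 20.9% in sensitive cells alone, 17.3% in cocultured sensitive cells, 15.2% in cocultured resistant cells and 15.4% in resistant cells alone, and its part in the differences described here was not tested.

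All 6 genes lay within 75613 bases of chromosome 16 (GRCh37, GENCODE 44 lifted to that build). MT2A (ENSG00000125148) spanned chr16:56642496-56643409, MT1E (ENSG00000169715) chr16:56659387-56661024, MT1M (ENSG00000205364) chr16:56666571-56667893, MT1F (ENSG00000198417) chr16:56691643-56694610, MT1G (ENSG00000125144) chr16:56700642-56701977 and MT1X (ENSG00000187193) chr16:56716382-56718108. MT1G is on the minus strand and the others are on the plus strand. A promoter was at hand in the RefSeq table (GRCh38.p14) for MT2A and MT1X. The 250 bases before each start site are shown because both genes carry repeated copies of the core of the metal response element, which MTF1 binds. The MT2A window is chr16:56608334-56608583 and the MT1X window chr16:56682220-56682469 in GRCh38.p14, both on the plus strand. Capitals mark every match to TGCACNC or TGCGCNC, where N is any base, on either strand, and no 2 matches overlapped.
MT2A: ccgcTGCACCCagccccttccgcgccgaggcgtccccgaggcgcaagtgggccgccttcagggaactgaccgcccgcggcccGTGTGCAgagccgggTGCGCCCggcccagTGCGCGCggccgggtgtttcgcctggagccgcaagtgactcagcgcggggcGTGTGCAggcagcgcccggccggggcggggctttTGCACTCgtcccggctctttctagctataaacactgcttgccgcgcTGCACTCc
MT1X: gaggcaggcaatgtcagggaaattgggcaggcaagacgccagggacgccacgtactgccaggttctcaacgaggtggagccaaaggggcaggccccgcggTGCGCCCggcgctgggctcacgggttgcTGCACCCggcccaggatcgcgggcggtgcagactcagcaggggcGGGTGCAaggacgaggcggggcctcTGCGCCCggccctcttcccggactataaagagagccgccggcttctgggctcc
The MT2A window held 7 matches and the MT1X window 4. At least 1 match stood in 24.8% of all 35116 promoters of the same length, as many as in MT2A in 0.0313% and as many as in MT1X in 0.370%. The same window held 8 matches in MT1H, 3 in MT1B and 3 in MT4, family members that were nearly absent from the counts.

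Close copies limit what a UMI count of these genes can say. Of the 31-base words in the last 300 bases of each transcript, the stretch that 3′ libraries read, 43.0% for MT2A and 41.9% for MT1X also occurred elsewhere in the genome. The share was 45.6% for MT1G, 42.6% for MT1M, 23.7% for MT1E and 16.3% for MT1F. The longest stretch made of such words was 86 bases in MT2A, 116 in MT1X, 112 in MT1G, 78 in MT1M, 72 in MT1F and 54 in MT1E. How many reads were lost or moved between copies is not known, so levels are compared between populations and not between genes.

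Of the 6 genes, MT2A, MT1X and MT1F were expressed, and MT1E, MT1G and MT1M were all but absent from the counts. Over all annotated cells MT2A had 240754 UMIs, MT1X 95533 and MT1F 12728. MT1E had 3 UMIs, all in resistant cells alone, MT1G had 1 in cocultured sensitive cells and 1 in resistant cells alone, and MT1M had 1 in resistant cells alone. A count of 0 allows a level of up to 0.0312 CPM in sensitive cells alone, 0.0423 CPM in cocultured sensitive cells, 0.0150 CPM in cocultured resistant cells and 0.0111 CPM in resistant cells alone. Of the family members outside the 6, MT1A (ENSG00000205362) had 2947 UMIs, MT4 57, MT3 8, MT1B 6, MT1H 1 and MT1HL1 0. No fold is given for genes at or near 0.

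MT2A was lowest in sensitive cells grown alone and several times higher in the other populations. Its level was 102 CPM (100.1 to 104) in sensitive cells alone, 418 CPM (413 to 423) in cocultured sensitive cells, 494 CPM (491 to 497) in cocultured resistant cells and 379 CPM (377 to 381) in resistant cells alone. No 2 of these counting intervals overlapped, but they leave out the spread between cells. The variance of MT2A UMIs per cell was 20.9 to 43.1 times their mean in the 4 populations. The order of cocultured sensitive cells and resistant cells alone is therefore not settled by these intervals. MT2A was 4.09-fold (4.00 to 4.19) higher in cocultured sensitive cells than in sensitive cells alone, a log2 ratio of 2.02. Of the 12326 genes with at least 50 UMIs in that comparison 2 had a larger one. That rank repeats what chose the family, so nothing is read from it. In resistant cells the ratio of coculture to monoculture was 1.30-fold (1.29 to 1.32). Resistant cells exceeded sensitive cells 3.71-fold (3.64 to 3.79) between the monocultures and 1.18-fold (1.17 to 1.20) within the coculture. The sizes depended on the measure. Per-cell log2 values were taken of UMIs per 10000 plus 1. That adds more than the 1 CPM added for the other ratios and by itself makes ratios smaller. As a difference between means of these values, the MT2A ratio of 2.02 in sensitive cells across cultures was 1.20. That of 1.88 between the monocultures was 1.02, that of 0.38 in resistant cells across cultures 0.24 and that of 0.24 within the coculture 0.065. From summed UMIs of G1 cells alone, the last pair of ratios were 0.14 and 0.035.

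MT1X showed the same split between sensitive cells alone and the rest. It measured 64.2 CPM (62.6 to 65.8) in sensitive cells alone, 157 CPM (154 to 160.0) in cocultured sensitive cells, 156 CPM (154 to 158) in cocultured resistant cells and 174 CPM (172 to 175) in resistant cells alone. The intervals of the cocultured populations overlapped, so that their order was not resolved, and resistant cells alone stood above both. MT1X was 2.45-fold (2.37 to 2.52) higher in cocultured than in monocultured sensitive cells and 2.71-fold (2.64 to 2.78) higher in resistant than in sensitive monoculture. In resistant cells the coculture level was 0.896 times (0.884 to 0.909) the monoculture level.

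MT1F differed between the lineages in both cultures. Its level was 8.28 CPM (7.72 to 8.88) in sensitive cells alone, 13.7 CPM (12.8 to 14.6) in cocultured sensitive cells, 20.3 CPM (19.7 to 20.9) in cocultured resistant cells and 25.5 CPM (24.9 to 26.1) in resistant cells alone, and no 2 of the intervals overlapped. It was 1.65-fold (1.5 to 1.82) higher in cocultured than in monocultured sensitive cells, 3.08-fold (2.86 to 3.32) higher in resistant than in sensitive monoculture, and 1.48-fold (1.38 to 1.59) higher in resistant than in sensitive cells of the coculture. Cocultured resistant cells had 0.795 times (0.765 to 0.827) the MT1F of resistant cells alone. The order of the populations thus differed between genes, with MT2A highest in cocultured resistant cells and MT1X and MT1F highest in resistant cells alone. MT1A had another order, highest in cocultured sensitive cells, with 1.97 CPM (1.70 to 2.28) in sensitive cells alone, 8.48 CPM (7.81 to 9.18) in cocultured sensitive cells, 4.99 CPM (4.69 to 5.31) in cocultured resistant cells and 4.28 CPM (4.04 to 4.53) in resistant cells alone.

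**Figure D1:**
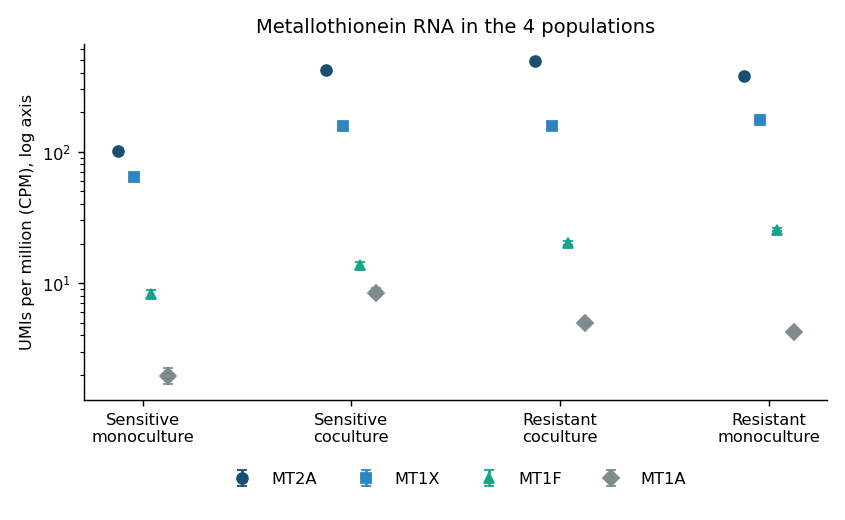
Level of 4 metallothionein genes in the 4 populations, in CPM on a log axis. Points are sums over all cells of a population and bars are 95% counting intervals, often smaller than the point. MT2A sits at 102 CPM in sensitive monoculture and at 379 CPM or more in the other populations, while MT1A is highest in sensitive coculture.

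Counts of members past a log2 ratio of 1 repeat what chose them, so nothing is read from them. In sensitive cells across cultures 2 of the 3 members with at least 50 UMIs, MT2A and MT1X, reached 1, where 1.53% of all genes did and 1.04% reached -1. Between the monocultures all 3 reached 1 in favour of resistant cells, where 2.16% of genes did and 4.1% reached -1. None reached 1 in resistant cells across cultures, where 0.038% of genes did and 0% reached -1, and none did within the coculture, where 0.454% of genes did and 1.29% reached -1. The 4 comparisons share populations and are not independent of each other.

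Free RNA from resistant cells can enter droplets that hold sensitive cells. In 1263 coculture barcodes within the cell limits of the study and with 2 or more mVenus UMIs, annotated or not, 136 had an mCherry UMI. The mCherry level there was 4.08 CPM against 53.9 CPM in resistant cells alone, which corresponds to 7.57% resistant RNA. Of the 1263 barcodes 1127 were annotated sensitive cells and had no mCherry UMI, so every mCherry UMI came from barcodes outside the annotation. Those barcodes may be doublets of both lineages rather than carriers of free RNA, which was not tested. This share was thus not measured in the annotated sensitive cells, none of which had an mCherry UMI. If it held for them and were taken out, MT2A in cocultured sensitive cells would be 412 CPM and MT1X 157 CPM.

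MT2A differed several-fold between the cell cycle phases of the authors' annotation, and the order was the same in every population, G1 lowest, then S, then G2M. In sensitive cells alone MT2A was 61.8 CPM (60.1 to 63.5) in 2963 G1 cells, 173 CPM (163 to 183) in 176 S cells and 516 CPM (499.6 to 534) in 190 G2M cells. In cocultured sensitive cells it was 253 CPM (248 to 258) in G1, 393 CPM (384 to 403) in S and 801 CPM (787 to 814) in G2M. The G2M level was 8.35-fold (8.0 to 8.72) the G1 level in the former and 3.16-fold (3.08 to 3.25) in the latter. In cocultured resistant cells MT2A was 259 CPM (256 to 263) in G1, 386 CPM (381 to 392) in S and 1031 CPM (1022 to 1039) in G2M, a 3.97-fold (3.91 to 4.03) difference between G2M and G1. In resistant cells alone it was 235 CPM (232 to 237) in G1, 309 CPM (306 to 313) in S and 784 CPM (777 to 791) in G2M, a 3.34-fold (3.29 to 3.39) difference.

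The other genes varied less with phase than MT2A in each population. The ratio of G2M to G1 for MT1X was 1.53-fold (1.41 to 1.67) in sensitive cells alone, 1.16-fold (1.1 to 1.21) in cocultured sensitive cells, 1.41-fold (1.37 to 1.45) in cocultured resistant cells and 1.41-fold (1.37 to 1.44) in resistant cells alone. In cocultured sensitive cells MT1X was highest in S cells, at 188 CPM (182 to 195), against 140.3 CPM (136 to 144) in G1 and 162 CPM (156 to 168) in G2M. For MT1F the ratios of G2M to G1 were 1.83, 1.23, 1.57 and 1.5 and for MT1A 5.12, 1.9, 2.02 and 1.97. Of the 3 members, MT2A was the one past a log2 ratio of 1 between G2M and G1. It was so in all 4 populations, where 3.63%, 2.36%, 2.08% and 2.15% of genes were.

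**Figure D2:**
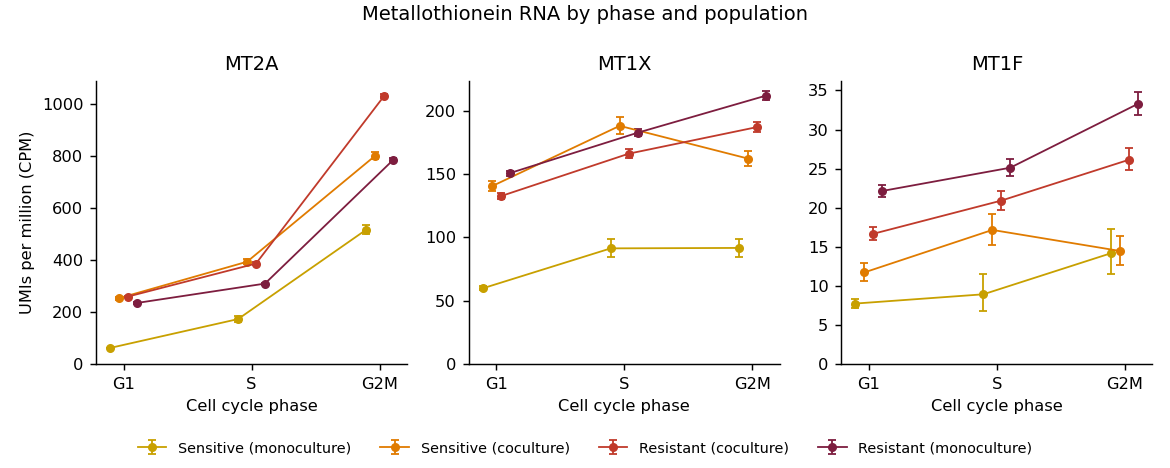
MT2A, MT1X and MT1F by cell cycle phase (horizontal axis) in CPM (vertical axis), with 1 line for each population. Points are sums over cells and bars 95% counting intervals. MT2A is highest in G2M in all 4 populations, from 516 to 1031 CPM, and sensitive monoculture is the lowest at each phase.

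Sensitive cells differed in phase between the cultures, with 89.0% of cells in G1 alone and 55.3% in coculture. The MT2A difference was present within each phase and was larger in G1, at 4.10-fold (3.96 to 4.24) against 1.55-fold (1.49 to 1.61), with S cells between at 2.27-fold (2.14 to 2.42). With the phases weighted as in sensitive cells alone, MT2A in cocultured sensitive cells was 302 CPM, 2.96-fold the monoculture level. Sensitive cells alone, weighted by the phases of coculture, came to 197 CPM, 1.93-fold their own level. For MT1X the first weighting gave 2.26-fold, and the difference in G1 cells was 2.35-fold (2.26 to 2.44). Within the coculture, resistant G1 cells had 1.02-fold (1.0 to 1.05) the MT2A of sensitive G1 cells. Resistant S cells had 0.982-fold (0.956 to 1.01) that of sensitive S cells, an interval that includes 1. Cells differed in MT2A by more than counting error, so the order of the lineages in G1 and in S was not resolved. Resistant G2M cells had 1.29-fold (1.26 to 1.31) that of sensitive G2M cells.

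The clusters of the authors' annotation were built from the expression of these same cells, so levels across clusters are a description. Cocultured resistant cells ranged from 142 CPM (139 to 145) of MT2A in cluster 0, which held 2534 of them, to 1183 CPM (1172 to 1194) in cluster 2, where 98.2% were in G2M. In resistant cells alone the same clusters had 117 CPM (115 to 119) and 893 CPM (884 to 903). Cluster 5 was also high, with 944 CPM (931 to 958) in coculture and 782 CPM (772 to 791) in monoculture, although 65.5% and 69.0% of its cells were in G1. Among G1 cells, cluster 5 had 811 CPM in coculture and 748 CPM in monoculture, against 134 and 108 CPM in cluster 0. High MT2A was thus seen in G1 cells as well as in G2M cells. MT1X spanned a narrower range over these clusters in coculture, with 124 CPM in cluster 0, 192 CPM in cluster 2 and 167 CPM in cluster 5.

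Sensitive cells fell mostly into other clusters. When grown alone, 1945 of 3329 were in cluster 4, at 45.3 CPM (43.6 to 47.0) of MT2A, and 681 in cluster 8, at 34.9 CPM (31.9 to 38.0). In coculture 1087 of 2059 were in cluster 3 and 617 in cluster 7. Cluster 3 also held 91 cocultured resistant cells, at 314 CPM (295 to 334) of MT2A. In the sensitive cells of cluster 3 MT2A was 291 CPM (279.6 to 303) in 267 monocultured and 294 CPM (288 to 299) in the cocultured cells. These intervals overlapped, which does not show equal levels, since clusters group cells of like expression. MT1X in the same sensitive cells of cluster 3 was 93.3 CPM (86.9 to 100.0) and 158 CPM (154 to 162), which did not overlap. In cluster 7 MT2A was 424 CPM (410.3 to 438) in monoculture and 656 CPM (646 to 667) in coculture, with 63.8% and 53.6% of cells in G2M. In cluster 4 it was 129 CPM (115 to 144) in the 84 cocultured cells. Between phases lay 18.0% to 25.2% of the variance of per-cell log2 MT2A, and between clusters 19.8% to 44.3%, depending on the population.

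**Figure D3:**
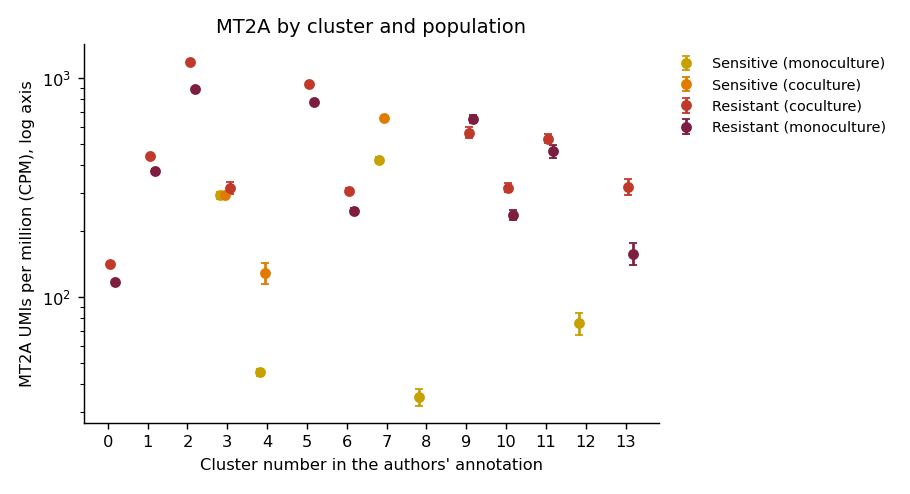
MT2A level in CPM (log axis) in each cluster with at least 50 cells of a population, coloured by population, with 95% counting intervals. Clusters 2 and 5 of resistant cells are highest, and cluster 0 is the lowest of the resistant clusters. In cluster 3 the intervals of the sensitive cells of both cultures overlap, at 291 and 294 CPM.

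MT2A was unevenly spread from cell to cell. So that depth did not set the result, each cell was thinned to 5000 UMIs, which every annotated cell had. An MT2A UMI was then seen in a share of cells of 23.5% (22.0 to 24.9) in sensitive cells alone, 59.8% (57.6 to 61.9) in cocultured sensitive cells, 61.0% (59.8 to 62.2) in cocultured resistant cells and 55.1% (54.0 to 56.2) in resistant cells alone. Without thinning the shares were 53.6%, 93.9%, 91.3% and 89.3%. The 10% of cells with the most MT2A held 70.2%, 47.2%, 49.8% and 51.6% of its thinned UMIs, a share that also depends on the mean, which was 0.451, 2.01, 2.35 and 1.89 UMIs per thinned cell. The coefficient of variation over thinned cells was 2.76, 1.58, 1.67 and 1.74. The ratio of variance to mean was 3.42, 5.01, 6.51 and 5.74, against a median near 1.07 over genes with at least 50 CPM. Among those genes MT2A ranked 46 of 2351 in sensitive cells alone and 22 of 2273, 18 of 2271 and 22 of 2266 in the others. Both measures also depend on the mean. They placed sensitive cells alone oppositely, highest in the first and lowest in the second, and the ranked genes were not matched on level.

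MT1X was spread more evenly. Its coefficient of variation over thinned cells was 2.06, 1.39, 1.37 and 1.38, below that of MT2A in each population. Its ratio of variance to mean, which also depends on the mean, was 1.21, 1.49, 1.44 and 1.62, at ranks 433, 193, 206 and 147. An MT1X UMI was seen in a share of thinned cells of 22.6% (21.2 to 24.0) in sensitive cells alone, 47.1% (44.9 to 49.3) in cocultured sensitive cells, 47.5% (46.3 to 48.8) in cocultured resistant cells and 49.8% (48.7 to 50.9) in resistant cells alone. MT2A was uneven within a phase too. Its ratio of variance to mean over thinned G1 cells was 2.09 to 4.93 in the 4 populations. Its top 10% of cells held 52.1% to 69.0% of the thinned UMIs among G1 cells and 33.1% to 38.8% among G2M cells. That share is larger where counts are sparse, and the means were 0.299 to 1.28 in G1 and 2.48 to 5.03 in G2M. The difference in share between the phases is therefore not read as a difference in spread.

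**Figure D4:**
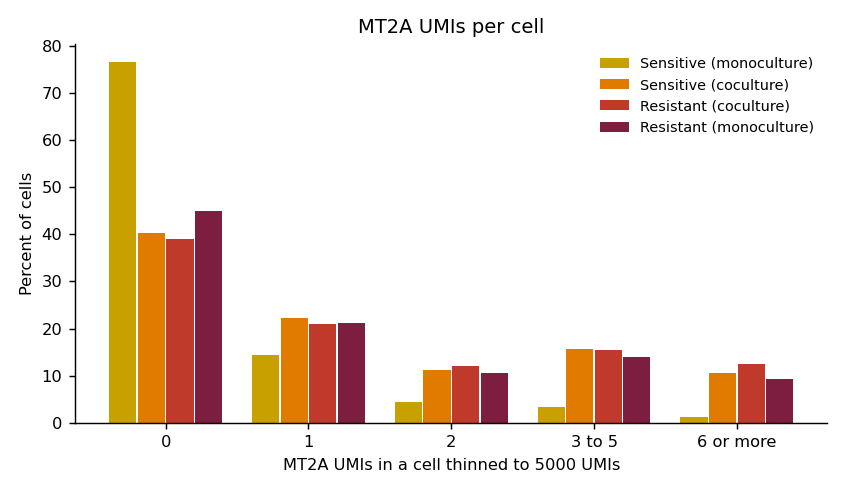
Share of cells (percent, vertical axis) with 0, 1, 2, 3 to 5 or 6 or more MT2A UMIs after each cell was thinned to 5000 UMIs, for the 4 populations. No error bars are drawn because each bar is a share of counted cells. Of 3329 cells in sensitive monoculture 2548 had none and 39 had 6 or more, while 217 of 2059 cells in sensitive coculture had 6 or more.

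Cells with more MT2A had more MT1X on average. Sensitive cells alone with no thinned MT2A UMI had a mean of 0.243 (0.225 to 0.263) MT1X UMIs, and those with 3 to 5 had 0.504 (0.382 to 0.654). In resistant cells alone the mean was 0.641 (0.614 to 0.668) at no MT2A UMI and 1.42 (1.33 to 1.51) at 6 or more. In cocultured resistant cells the same classes had 0.576 (0.546 to 0.606) and 1.16 (1.08 to 1.23). In cocultured sensitive cells the mean was 0.620 (0.567 to 0.676) at no MT2A UMI, 0.914 (0.795 to 1.05) at 2 and 0.931 (0.807 to 1.07) at 6 or more, and the intervals of the last pair overlapped. Phase moved with these classes, since 1.84%, 10.1%, 9.42% and 9.70% of cells with no MT2A UMI were in G2M, and 56.4%, 59.4%, 63.3% and 56.4% of those with 6 or more.

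MT1F, at lower counts, had a mean of 0.0890 (0.0793 to 0.0997) UMIs in resistant cells alone without MT2A and 0.259 (0.223 to 0.300) in those with 6 or more, and in cocultured resistant cells 0.0705 (0.0604 to 0.0819) and 0.157 (0.130 to 0.187). In sensitive cells alone the same classes had 0.0302 (0.0238 to 0.0378) and 0.0769 (0.0159 to 0.225), which overlapped. In cocultured sensitive cells they had 0.0580 (0.0427 to 0.0769) and 0.134 (0.0895 to 0.192), with 0.0679 (0.0426 to 0.103) at 3 to 5, so that the difference lay in the highest class. Over single thinned cells the relation was weak. With MT1X, Pearson's r of unthinned log2 values was higher, at 0.33, 0.29, 0.38 and 0.40. Spearman's rho of thinned MT2A with MT1X was 0.11 in sensitive cells alone, 0.12 in cocultured sensitive cells, 0.18 in cocultured resistant cells and 0.19 in resistant cells alone. Within G1 cells it was 0.081, 0.13, 0.16 and 0.19, and with MT1F over all cells 0.079, 0.039, 0.097 and 0.13. Cells of a population share 1 library and these counts are sparse, so the values are a description only.

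**Figure D5:**
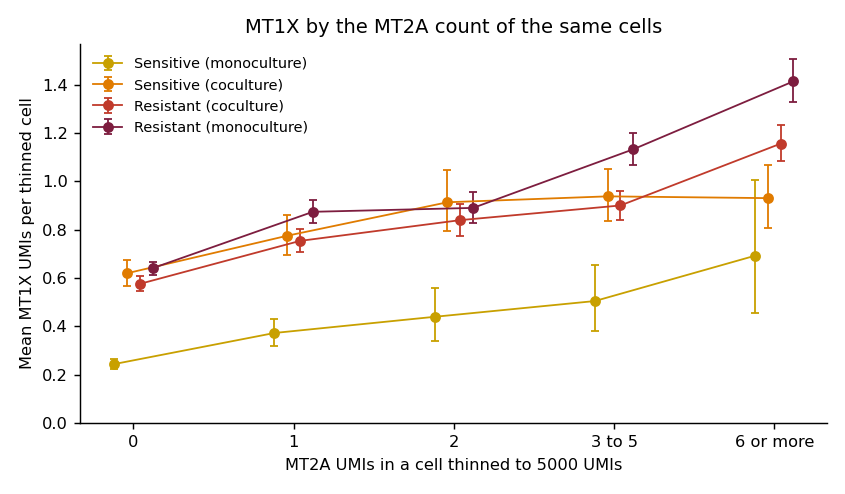
Mean MT1X UMIs per cell (vertical axis) against the MT2A UMIs of the same cells (horizontal axis), both after thinning to 5000 UMIs, with 1 line for each population and 95% counting intervals. The mean at 6 or more MT2A UMIs lies above that at 0 in all 4 populations, for instance at 1.42 against 0.641 in resistant monoculture.

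Among the known regulators of these genes, MTF1, the zinc-sensing activator, was 10.6 CPM in sensitive cells alone, 11.3 CPM in cocultured sensitive cells, 7.26 CPM in cocultured resistant cells and 6.49 CPM in resistant cells alone. It was 1.07-fold (0.975 to 1.18) across cultures in sensitive cells, an interval that includes 1, and 0.613 times (0.567 to 0.662) as high in resistant as in sensitive monoculture. These are RNA levels, and the activity of MTF1 was not tested. SLC30A1, the zinc exporter of the cell surface that MTF1 also controls, was 16, 17.3, 14.7 and 12.6 CPM. NR3C1, the glucocorticoid receptor, was 33.0 CPM in sensitive cells alone, 51.9 CPM in cocultured sensitive cells, 68.1 CPM in cocultured resistant cells and 59.2 CPM in resistant cells alone, and the ratio across cultures in sensitive cells was 1.57-fold (1.5 to 1.65). The list of known regulators held 5 genes, among them NR3C1, USF1 and USF2. None of the 5 reached a log2 ratio of 1 in size in the 4 comparisons. That is a count of 0 of 5 where at most 4.1% of all genes reached it in 1 direction. Their median in sensitive cells across cultures was 0.069 against -0.050 over all genes tested. The transcription factors USF1 and USF2 were at log2 ratios of -0.49 and -0.16 there.

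Genes of metal handling were looked at as lists. Of 17 zinc transporters tested in sensitive cells across cultures none was past 1 in size and 8 were above 0, with a median log2 ratio of -0.014. Over all genes tested there, 1.53% reached 1 and 1.04% reached -1, 43.6% were above 0 and the median was -0.050. The 3 transporters with the largest ratio in size were the zinc importers SLC39A4, at 36.4 CPM in monoculture and 58.4 CPM in coculture, SLC39A10, at 26.4 and 38.5 CPM, and SLC39A8, at 1.48 and 2.57 CPM. SLC39A8 was the one zinc transporter past 1 in size in any of the 4 comparisons. It was at 2.57 CPM in sensitive and 0.601 CPM in resistant cells of the coculture, a log2 ratio of -1.16, where 1.29% of all genes reached -1 and 0.454% reached 1. Of 12 copper handling genes none was past 1 in size and 4 were above 0 in sensitive cells, with a median of -0.23, beside the same shares of all genes. In monoculture and coculture the copper transporter SLC31A2 was at 12.2 and 5.81 CPM and the copper-exporting ATPase ATP7B at 4.55 and 2.30 CPM. COX17, which carries copper to cytochrome oxidase, was at 173 and 269 CPM.

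Of 9 glucocorticoid-induced genes 1 was above 0 in sensitive cells across cultures, with a median log2 ratio of -0.42 against -0.050 over all genes, of which 43.6% were above 0. Among them DUSP1, a phosphatase of MAP kinases, was 134 CPM in monoculture and 72.7 CPM in coculture, ERRFI1, an inhibitor of EGFR, 11.8 and 6.29 CPM, and ANGPTL4, an inhibitor of lipoprotein lipase, 2.99 and 1.48 CPM. Between the monocultures ERRFI1 and ANGPTL4 were past -1, at -1.38 and -1.21, where 4.1% of all genes reached -1. Of 12 targets of NRF2, the factor that answers oxidative stress, 2 were above 0 in sensitive cells across cultures and 0 between the monocultures, with medians of -0.13 and -0.39. Over all genes the medians were -0.050 and -0.071, with 43.6% and 42.2% above 0. In monoculture and coculture of sensitive cells the ferritin heavy chain FTH1 was at 2544 and 1653 CPM, heme oxygenase HMOX1 at 21.6 and 15.4 CPM and the sulfiredoxin SRXN1 at 0.707 and 0.451 CPM. Of 10 heat shock genes 7 were above 0 there, with a median of 0.22, and none was past 1 in size, where 1.53% of all genes reached 1 and 1.04% reached -1. The co-chaperone DNAJB1 was at 74.6 and 102 CPM, the chaperone HSPA1A at 347 and 259 CPM and the co-chaperone BAG3 at 84.1 and 62.9 CPM.

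Likeness to MT2A was measured by Pearson's correlation for each of 2293 genes outside the family whose mean level was 50 CPM or more. By the mean r of per-cell log2 values over the 4 populations, the 5 highest were PTTG1, the securin, at 0.65, PCLAF, a PCNA-binding factor, at 0.57, UBE2S, a ubiquitin-conjugating enzyme of mitotic exit, at 0.57, HMGN2, a nucleosome-binding protein, at 0.56 and BIRC5, known as survivin, at 0.55. For PTTG1 it was 0.63 in sensitive cells alone, 0.65 in cocultured sensitive cells, 0.69 in cocultured resistant cells and 0.65 in resistant cells alone. PTTG1 itself was at 102, 239, 239 and 250.4 CPM. Over the 12 sums of a population and a phase, the 5 highest were PDAP1 at 0.98, the mitochondrial ribosomal protein gene MRPS18C at 0.96, the RNA-binding protein gene RBMX at 0.96, the transcription kinase gene CDK12 at 0.95 and HDGF at 0.95. PDAP1 spanned a narrower range than MT2A, at 128, 173, 180.4 and 165 CPM. On the same 12 sums MT1X correlated with MT2A at 0.746, MT1F at 0.70 and MT1A at 0.84. Many genes outside the family had values as high. HMGB1, at 0.751, ranked 204 of the 2293, above MT1X and MT1F, and NUSAP1, at 0.860, ranked 71, above MT1A. The 12 sums come from 3 libraries and the cells share depth and phase, so these are descriptions with no test.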

How the data were processed

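Single-cell RNA was measured in 3 libraries of CAMA-1 spheroids, 1 per condition. The authors aligned reads to GRCh37 and counted UMIs with Cell Ranger 3.0.2. They deposited raw, unscaled counts of each gene in each barcode, together with a Seurat annotation that gives each cell's population, phase, cluster, UMI count and percent of mitochondrial UMIs. How reads matching several copies were treated is not given in the sources used here. The columns of counts and of deposited mitochondrial percent were used as they stand, and 12 columns of the annotation were not used. The study's methods state limits of 3000 to 7000 genes, 2000 to 60000 UMIs and under 30% mitochondrial UMIs, the removal of predicted doublets, and a minimum of 2 UMIs of a transgene for each kept cell. In the files 3329, 12346 and 7557 barcodes of the all-sensitive, mixed and all-resistant libraries were within those limits, of which 3329, 8351 and 7557 carried an annotation. Every barcode within the limits was thus annotated in both monocultures, so no removal of doublets or selection by transgene is visible there, and coculture cells with 1 transgene UMI were annotated. Doublets were not called here and may remain.

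Rows with no symbol (0.523% to 0.591% of UMIs) were left out, and totals per cell then differed from the deposited ones by at most 6 UMIs. UMIs were summed over each population (70896822 to 270891547 UMIs) and expressed as CPM. Log2 ratios used a pseudocount of 1 CPM and genes with at least 50 UMIs over both sides. Means and correlations of per-cell log2 values used UMIs per 10000 plus 1. Folds are ratios of CPM. Intervals are exact at 95% (Poisson for sums, conditional binomial for ratios, Clopper-Pearson for shares), cover counting error only, and a count of 0 was given a limit of 3 counts. Cells were thinned to 5000 UMIs with a fixed seed. Words of 31 bases from the last 300 bases of GENCODE 44 transcripts were searched in GRCh37 on both strands. Log2 ratios, intervals, thinning and correlations were tested on simulated data. The function for TMM factors in edgeR 4.0.16 (R 4.3.3) served for 1 scaling alternative. All else ran in Python 3.11.15 with pandas 2.3.3, numpy 2.4.6, scipy 1.17.1 and matplotlib 3.10.9.

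The members and lists were chosen with earlier results of these data known. The genes named are the 6 members, the other metallothionein genes, MTF1, SLC30A1 and NR3C1, from each list the 3 with the largest ratio in size between the cultures of sensitive cells, and the 5 most like MT2A over the 12 sums and over cells. Alternatives covered the pseudocount, scaling, phase, the transgene threshold, per-cell averaging, free RNA, the cells highest in MT2A and, chosen after seeing the data, scaling by UMIs outside mitochondrial genes.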

Additional observations from a re-analysis of the deposited data

Results flagged for a closer look

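The ratios of MT1X and MT1F had opposite signs in the sensitive and resistant cells when coculture was set against monoculture, and the difference was not tested because each condition was 1 library. The log2 ratio of MT1X was 1.28 in sensitive and -0.16 in resistant cells, and that of MT1F was 0.66 and -0.32. MT2A was above 0 in both, at 2.02 and 0.38.

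Barcodes outside the annotation also held MT2A. Those with a mitochondrial share of 30% or more had 33.0 CPM in the sensitive monoculture library (4489 barcodes), 155 CPM in coculture (6172) and 118 CPM in resistant monoculture (2187). As CPM of the UMIs outside mitochondrial genes they had 67.5, 292 and 226, against 128, 567 and 452 in the annotated cells of the same libraries. Barcodes outside the annotation with a lower mitochondrial share had 170 CPM in sensitive monoculture (825 barcodes), 431 CPM in coculture (5704) and 432 CPM in resistant monoculture (1758).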

How the results depend on the processing

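No paired analysis was possible because there was 1 library per condition, and no library could be left out. Of 70 log2 ratios of MT2A, MT1X and MT1F under an alternative, 68 had the sign first given, and the other 2 were MT1X within the coculture. Of 30 whose first value was at least 1 in size, 29 stayed so, the other being MT1F between the monocultures with a pseudocount of 10 CPM, at 0.96. The values of MT2A and MT1X below moved beyond the counting interval of the first value, except the last MT1X value, given for its sign. Of MT1F 8 values moved, among them 0.37 in sensitive cells and 0.35 within the coculture with a pseudocount of 10 CPM, against 0.66 and 0.54. Beyond what each setting itself changes the cause was not tested.

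For MT2A across cultures in sensitive cells the log2 ratio was 1.93 with a pseudocount of 10 CPM, 1.20 as a mean of per-cell log2 values, 2.19 without the 1% of cells highest in MT2A and 1.98 scaled by UMIs outside mitochondrial genes. Across cultures in resistant cells it was 0.31 with TMM factors, 0.14 in G1 cells, 0.41 in cells with 2 or more UMIs of their transgene and 0.24 per cell. Between the monocultures it was 1.80 with a pseudocount of 10 CPM, 1.99 with TMM factors, 1.86 with 2 or more transgene UMIs, 1.02 per cell, 2.0 without the highest cells and 1.81 outside mitochondrial genes. Within the coculture it was 0.035 in G1 cells, 0.22 with 2 or more transgene UMIs, 0.065 per cell, 0.21 without the highest cells, 0.26 after the correction for resistant RNA and 0.21 outside mitochondrial genes.

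For MT1X in sensitive cells it was 1.17 with a pseudocount of 10 CPM, 1.22 in G1 cells and 1.23 outside mitochondrial genes. In resistant cells it was -0.23 with TMM factors and -0.18 in G1 cells. Between the monocultures it was 1.31 with a pseudocount of 10 CPM, 1.54 with TMM factors, 1.32 in G1 cells, 1.56 with 2 or more transgene UMIs and 1.35 outside mitochondrial genes. Within the coculture it was -0.082 in G1 cells, 0.087 with 2 or more transgene UMIs and 0.0056 with TMM factors.

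The share of cells with an MT2A UMI was 53.6%, 93.9%, 91.3% and 89.3% unthinned and 19.3%, 47.7%, 47.0% and 43.9% in thinned G1 cells (sensitive monoculture, sensitive coculture, resistant coculture, resistant monoculture). The correlation of MT2A with MT1X over cells was 0.33, 0.29, 0.38 and 0.40 as Pearson's r of unthinned log2 values.

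With 1 library per condition, the difference between conditions cannot be told apart from the difference between libraries. MT1E, MT1G and MT1M, with 1 to 3 UMIs each, gave no ratio. The share of words in their transcript ends that recur elsewhere in the genome was 23.7%, 45.6% and 42.6%. It was 43.0% in MT2A and 41.9% in MT1X, which had 240754 and 95533 UMIs. Whether reads lost to close copies lowered the counts of MT1E, MT1G and MT1M was not tested.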

Other observations

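MT2A as a share of a cell's UMIs was correlated with the mitochondrial share of the cell, with Spearman's rho of -0.21 in sensitive cells alone, -0.23 in cocultured sensitive cells, -0.24 in cocultured resistant cells and -0.26 in resistant cells alone. Both are shares of the same total, which by itself lowers rho, and how much it did so was not tested. Before thinning, the highest MT2A count of a single cell was 124 in sensitive cells alone, 248 in cocultured sensitive cells, 499 in cocultured resistant cells and 419 in resistant cells alone.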
